A study of Medicago sativa with 3 samples.

Results

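UDP-glycosyltransferases (UGTs) are plant enzymes that move a sugar from a UDP-sugar onto a small acceptor molecule such as a hormone, a phenolic compound or a saponin. The sugar changes the solubility, activity and cellular location of the acceptor, and beta-glucosidases can remove it again, so that many acceptors move between a free and a stored form. In Medicago the family is known for glycosylating isoflavonoids and the triterpene saponins, which are bitter defence compounds of alfalfa foliage and roots.

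The transcripts described here are those of the assembled alfalfa transcriptome of at least 500 bases whose best matches in the Nr protein and Nt nucleotide databases both came from a legume, and whose Nr title named a glucosyltransferase, a UDP-glycosyltransferase or a glucuronosyltransferase. Titles naming flavonoid, anthocyanidin, cytokinin, sterol, starch, ceramide, indole or auxin substrates had been set aside. No expression value entered this choice. It gave 116 transcripts of 95646 in the table, out of 31487 that had legume matches and the required length, and a further 81 that met the wording fell below 500 bases. On either side of the length limit the values were of the same order, with a "putative glucosyltransferase" contig of 472 bases at 2.04, 2.99 and 1.90 FPKM just outside it, and a glucuronosyltransferase transcript of 504 bases at 3.82, 9.72 and 14.8 FPKM just inside it, in the order tolerant ungrazed, tolerant grazed and intolerant grazed, which is kept for every triplet of values that follows.

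The study sequenced 3 RNA bulks of Medicago sativa ssp. falcata cultivar 'Hulunbeier', an alfalfa grown as forage in Inner Mongolia, with 1 library per condition. The tolerant bulks came from the population MF200401, clonal propagules of the plants that recovered with the most vigour after sheep grazing, either grazed or kept ungrazed behind a fence and clipped to the height of the grazed plants when the sheep left. The intolerant bulk came from grazed propagules of MF200402, the plants that recovered worst, and no ungrazed intolerant library was among those analysed here. Each bulk pooled equal amounts of leaf, stem and root RNA taken about a week after the sheep were removed, so that a change in the make-up of the tissues and a change in RNA per cell cannot be told apart. Grazing likewise cannot be told apart from the block in which the plants stood, nor tolerance from the other genetic differences between the populations.

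The number of uniquely aligned fragments, in units of 1 M, was 22.8, 22.7 and 22.3. The levels are in FPKM, fragments per kilobase of transcript per 1 M aligned fragments, and a comparison is the log2 ratio of 2 FPKM values, called higher or lower where it reached 1 in size, a 2-fold difference. With no replicates there is no test of a condition. The 95% intervals given in brackets are exact Clopper-Pearson intervals of the fragment counts, and they cover counting error only. Marker lists of other tissues also differed between the libraries: 101 green tissue transcripts summed to 14322, 16344 and 30347 FPKM with none at 0, 22 root storage and root wall transcripts to 17833, 12671 and 6840 FPKM with 1 at 0 in the intolerant grazed library, 43 root nodule transcripts to 1896, 922 and 1035 FPKM with 2 at 0 in the tolerant ungrazed and 2 in the intolerant grazed library, and 76 lignifying stem transcripts to 1209, 1310 and 1171 FPKM with at most 3 at 0. The intolerant grazed library thus held the most green tissue RNA and the least root storage RNA, and the part of tissue make-up in the results below was not tested.

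The wording of the annotation gathered more than UGTs. Of the 116 transcripts, 90 matched UGTs of small molecules, 6 were sucrose synthases, named sucrose-UDP glucosyltransferases in their database titles, 8 were enzymes of glycoprotein folding or dolichol sugar chains, 4 of wall polysaccharides, and the rest were 3 rumi-like O-glucosyltransferases, 3 probable glucuronosyltransferases and 2 beta-1,3-glucosyltransferases. The title of the best match was from Medicago truncatula for 84 transcripts and from soybean for 23. They ranged from 504 to 3704 bases with a median of 1090, so that many are fragments of a coding sequence. As many as 72 were contigs of 37 assembly clusters and 77 shared their best protein with another of the 116, so contigs of a cluster are not separate genes with certainty, and because only uniquely aligned fragments were counted, reads common to near-identical contigs were lost or divided between them.

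Together the 116 transcripts took 0.477%, 0.282% and 0.314% of the aligned fragments, and their FPKM summed to 3357, 1994 and 2025. The sum was therefore highest in the tolerant ungrazed library, 0.75 lower on the log2 scale in the tolerant grazed one, and within 0.02 between the grazed libraries. Much of this came from the sucrose synthases. The 90 small-molecule UGTs alone summed to 2002, 1461 and 1160 FPKM, lowest in the intolerant grazed library. Such a sum is weighted to the most abundant transcripts. By count, 23 of the 90 (25.6%) were higher and 16 (17.8%) lower in the intolerant than in the tolerant grazed library. Their median log2 ratio was −0.22. The shares over all transcripts were 25.5% higher and 23.6% lower, and over the legume-matched ones 15.5% and 9.66%. The library with the highest FPKM was the tolerant ungrazed one for 46 of 116 transcripts (39.7%), the tolerant grazed one for 27 (23.3%) and the intolerant grazed one for 43 (37.1%). Among all legume-matched transcripts of the same minimum length these shares were 19.2%, 25.1% and 55.7%.

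Between the tolerant libraries, 21 of the 116 transcripts were higher and 23 were lower under grazing, with a median log2 ratio of −0.02. Of all 93053 transcripts with fragments in either library 16.9% were higher and 24.4% lower, and of the legume-matched transcripts of 500 bases or more 9.56% were higher and 5.15% lower, with a median of 0.11. The share over all transcripts includes RNA of other organisms: 3079 transcripts matched to listed genera of algae, oomycetes and other protists summed to 21931, 2366 and 694 FPKM, and 80.6% of those with fragments in either tolerant library were lower. Without them 17.3% of all transcripts were higher and 22.5% lower. Counting error alone could have carried some of them over the threshold, since the whole interval lay past it for 12 of the higher and 21 of the lower transcripts. The Poisson test of the study's methods, which compares 2 libraries and not conditions, kept 18 and 23 of them, against 5.61% and 10.7% of all transcripts and 7.27% and 4.12% of the legume-matched ones. Between the grazed libraries, 27 transcripts were higher and 17 lower in the intolerant plants, with a median of 0.03, against 25.5% higher and 23.6% lower over 86525 transcripts and 15.5% higher and 9.66% lower over the legume-matched ones. Of the listed protist transcripts 81.3% were lower in this comparison, and without them 25.8% of all transcripts were higher and 22.4% lower. The whole interval was past the threshold for 12 of the 27 higher and 14 of the 17 lower transcripts. With the Poisson test 26 and 17 were kept, against 13.3% and 9.93% of all and 13.9% and 8.63% of the legume-matched transcripts. The split turned with the scaling: when ratios were centred on the median of 48423 transcripts with at least 1 FPKM in every library, a shift of 0.24 in this comparison and 0.09 in the other, 17 were higher and 28 lower. Both comparisons use the tolerant grazed library, so a high or low value there enters each with the opposite sign, and their values are given side by side only. Counts of higher and lower transcripts in the groups below are to be read against the shares given here.

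**Figure D1:**
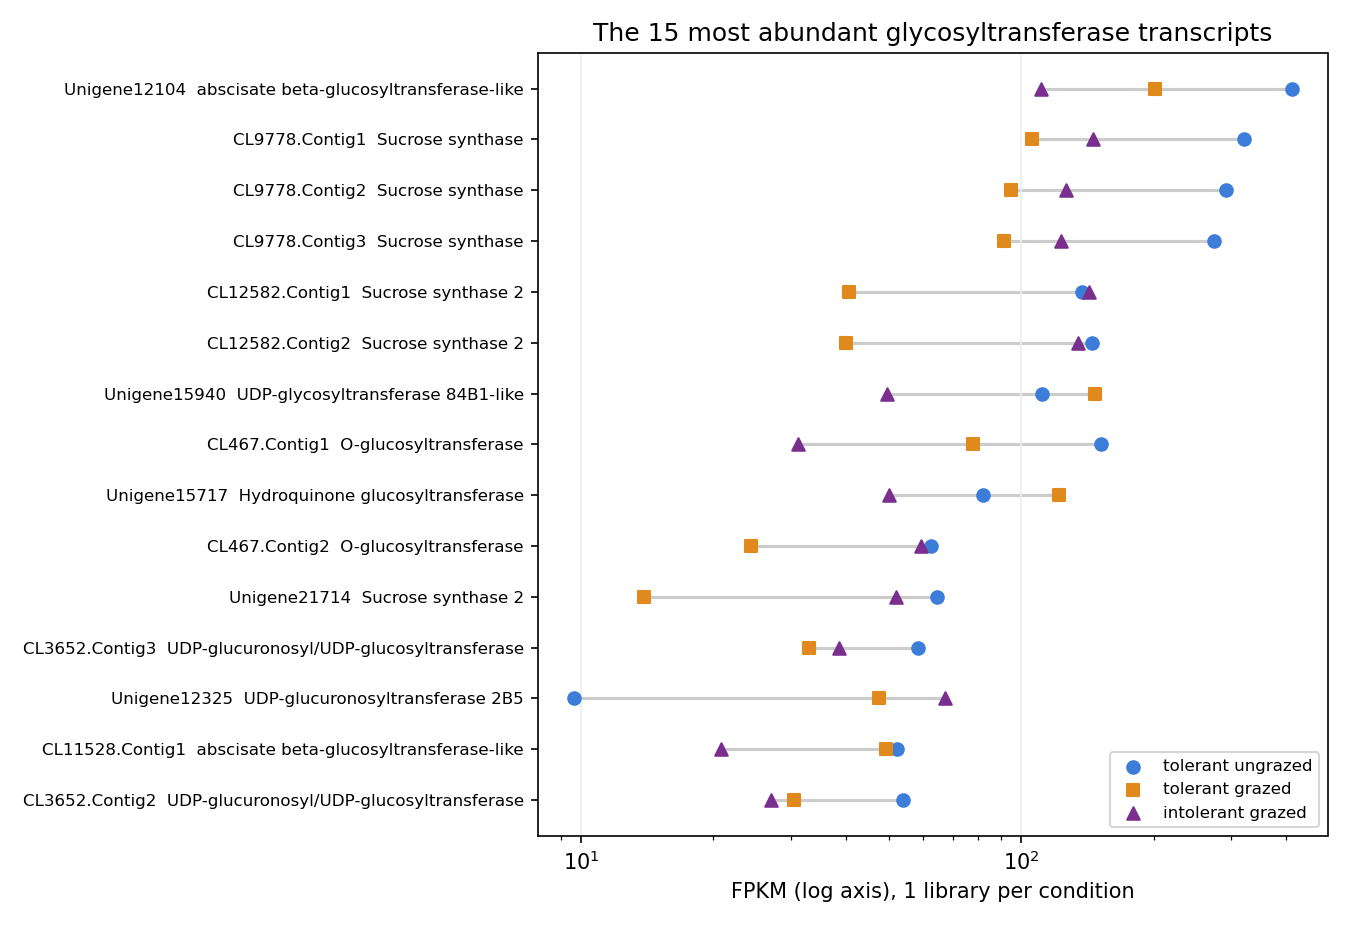
FPKM (log axis) of the 15 most abundant glycosyltransferase transcripts in the tolerant ungrazed (circles), tolerant grazed (squares) and intolerant grazed (triangles) libraries, 1 library per condition. The abscisate-named Unigene12104 ran from 412 to 111 FPKM, all 6 sucrose synthases were lowest in the tolerant grazed library, and Unigene12325 was lowest in the ungrazed one.

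Sucrose synthases cleave sucrose with UDP and so make UDP-glucose, the donor that UGTs use, and they are most active in importing tissues such as roots, stems and nodules. All 6 were lower in the tolerant grazed than in the tolerant ungrazed library, with log2 ratios from −2.21 to −1.59 and whole intervals past the threshold. The cluster CL9778 was at 321, 106 and 146 FPKM in Contig1, at 291, 94.9 and 127 in Contig2, and at 275, 91.4 and 123 in Contig3. These contigs moved alike, near −1.60 under grazing and between 0.42 and 0.46 in the intolerant grazed library. The sucrose synthase 2 transcripts stood at 137, 40.6 and 142 FPKM in CL12582.Contig1, at 145, 39.9 and 134 in CL12582.Contig2 and at 64.2, 13.9 and 52.1 in Unigene21714. In this isoform the intolerant grazed library was back near the tolerant ungrazed level, 1.75 to 1.91 above the tolerant grazed one on the log2 scale, whereas the CL9778 contigs stayed at less than a 2-fold difference. The most abundant transcript of the wider UDP-sugar supply list, a further sucrose synthase contig whose title does not name a glucosyltransferase (CL1276.Contig1), was at 1062, 307 and 400 FPKM. The 19 sucrose synthase transcripts of that list, this one included, were mixed: under grazing 7 were lower and 3 higher, with a median of 0.13, and in the intolerant grazed plants 9 were higher and 6 lower. Unigene5880 went the opposite way, at 12.0, 25.3 and 3.44 FPKM, with ratios of 1.08 under grazing and −2.88 between the grazed libraries. Unigene5881 had ratios of 0.94 and −3.04, and both were picked out after their values were seen. The 6 sucrose synthases summed to 1234, 387 and 724 FPKM. The root storage and root wall markers above summed to 17833, 12671 and 6840 FPKM and the nodule markers to 1896, 922 and 1035 FPKM. The part of tissue make-up in the sucrose synthase values was not tested.

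The most abundant UGT was Unigene12104, whose best match is an abscisate beta-glucosyltransferase, an enzyme known from adzuki bean to make the glucose ester of abscisic acid, an inactive storage form of this stress hormone. It stood at 412, 202 and 111 FPKM on 5349, 2602 and 1405 fragments. Its ratio was −1.03 (−1.10 to −0.96) under grazing and −0.87 (−0.96 to −0.77) from tolerant to intolerant, the latter short of the threshold. The other transcripts with this name, CL11528.Contig1 at 52.3, 49.2 and 20.8 FPKM and CL11528.Contig2 at 33.7, 30.8 and 17.2 FPKM, had ratios of −0.09 and −0.13 between the tolerant libraries and of −1.24 and −0.84 between the grazed ones, the second short of the threshold. The abscisate group of 3 thus summed to 498, 282 and 149 FPKM and was lowest in the intolerant grazed plants for each transcript. The call for Unigene12104 under grazing rested on the scaling, as it fell short of the threshold in TPM and with an abundant cluster left out of the totals.

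Swiss-Prot matches number UGT families as in Arabidopsis, where the number groups the enzymes by sequence, and several families had lower summed FPKM in the tolerant grazed than in the ungrazed library. In Arabidopsis UGT74 enzymes glucosylate salicylate, an auxin and glucosinolate precursors. All 9 UGT74 matches had negative ratios under grazing, from −2.11 to −0.39 with a median of −0.82, under FPKM and each of the 3 other scalings, 3 of them were past the threshold, and their sum was 359, 167 and 156 FPKM. The 3 past the threshold were 33.3% of the 9, against 24.4% lower over all transcripts and 5.15% over the legume-matched ones. Unigene7765 (UGT74F2 match) was at 64.1, 14.9 and 13.5 FPKM, a ratio of −2.11 (−2.26 to −1.96) under grazing and −0.14 (−0.34 to 0.05) between the grazed libraries. The same best protein was matched by Unigene10562 at 44.6, 11.1 and 8.82 FPKM and by Unigene34512 at 31.4, 13.1 and 19.4 FPKM. The UGT74E2 contigs of CL3652 also shared this best protein, which covered 6 of the 9 matches, so the 9 are not all separate genes with certainty. These contigs moved less: Contig3 was at 58.2, 33.0 and 38.6 FPKM and Contig2 at 54.0, 30.5 and 27.1 FPKM, both −0.82 under grazing. Between the grazed libraries the UGT74 ratios ran from −0.96 to 1.26, with none lower (1 under each of the other scalings) and 1 of 9 higher in the intolerant plants, the low-abundance Unigene21225 at 2.82, 1.73 and 4.15 FPKM.

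The 6 transcripts named UDP-glucosyltransferase HRA25, all matched to UGT83A1, included the lowest ratios under grazing. CL8156.Contig1 was at 39.0, 2.88 and 8.66 FPKM, a log2 ratio of −3.76 (−4.05 to −3.48) under grazing, the lowest of the 116. CL8156.Contig2 was at 17.1, 2.91 and 5.87 FPKM and Unigene29508 at 18.6, 2.38 and 4.02 FPKM, with ratios of −2.56 and −2.97. CL8156.Contig3 was at 5.61, 2.77 and 10.2 FPKM, and it was the one contig of its cluster whose level in the intolerant grazed library exceeded the ungrazed level. The other pair, Unigene870 at 3.74, 3.46 and 1.80 FPKM and CL7568.Contig2 at 2.48, 3.95 and 2.46 FPKM, were short of the threshold in both comparisons. In all, 4 of 6 were lower under grazing (3 in TPM and with the other totals) and 3 of 6 higher and none lower in the intolerant grazed library (2 higher and 1 lower under each of the other scalings), and their sum went from 86.6 to 18.4 and 33.0 FPKM. The shares over all transcripts were 24.4% lower under grazing and 25.5% higher between the grazed libraries, and over the legume-matched ones 5.15% and 15.5%. The contigs of CL8156 were 3 of the 4 lower and all 3 higher transcripts, so these counts rest largely on 1 cluster.

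UGT75 includes Arabidopsis enzymes acting on auxins, abscisate and anthocyanins. CL467.Contig1 was at 152, 77.7 and 31.2 FPKM, and its neighbour CL467.Contig2 at 62.3, 24.3 and 59.3 FPKM. Under grazing their ratios were −0.97 (−1.03 to −0.91), just short of the threshold, and −1.36 (−1.47 to −1.24), but in the intolerant grazed library they went opposite ways, by −1.32 (−1.42 to −1.22) and 1.28 (1.17 to 1.40). This was 1 of 3 clusters, of 22 with at least 2 of the transcripts, that held both a higher and a lower contig between the grazed libraries, whereas no cluster did so between the tolerant ones. The files do not say whether these contigs are alleles, splice forms or genes.

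Among the 8 UGT85 matches, a family that includes the Arabidopsis enzyme for trans-zeatin and the sorghum enzyme for a cyanohydrin, the pattern was mixed, with 1 higher and 2 lower under grazing and 4 higher in the intolerant grazed plants (2 under each of the other scalings). Over all transcripts 16.9% were higher and 24.4% lower under grazing, and 25.5% were higher between the grazed libraries. Unigene11577 was at 29.3, 3.78 and 7.62 FPKM, a ratio of −2.96 (−3.21 to −2.71) under grazing. CL7527.Contig2 was at 8.18, 4.81 and 21.5 FPKM, 2.16 (1.95 to 2.38) higher in the intolerant than in the tolerant grazed library. UGT73 is a family known from Arabidopsis for brassinosteroids and cytokinins. Transcripts whose titles lack the number may also belong to it, so the values here do not stand for the whole family. Of the 3 transcripts whose Swiss-Prot title gives this number, Unigene27869 was at 12.2, 7.56 and 5.94 FPKM and Unigene34641 at 12.6, 4.18 and 3.75 FPKM. CL3761.Contig1 was at 4.70, 0.602 and 3.85 FPKM on only 55, 7 and 44 fragments, so its ratios of −2.96 and 2.68 had intervals of −4.34 to −1.82 and 1.51 to 4.07.

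**Figure D2:**
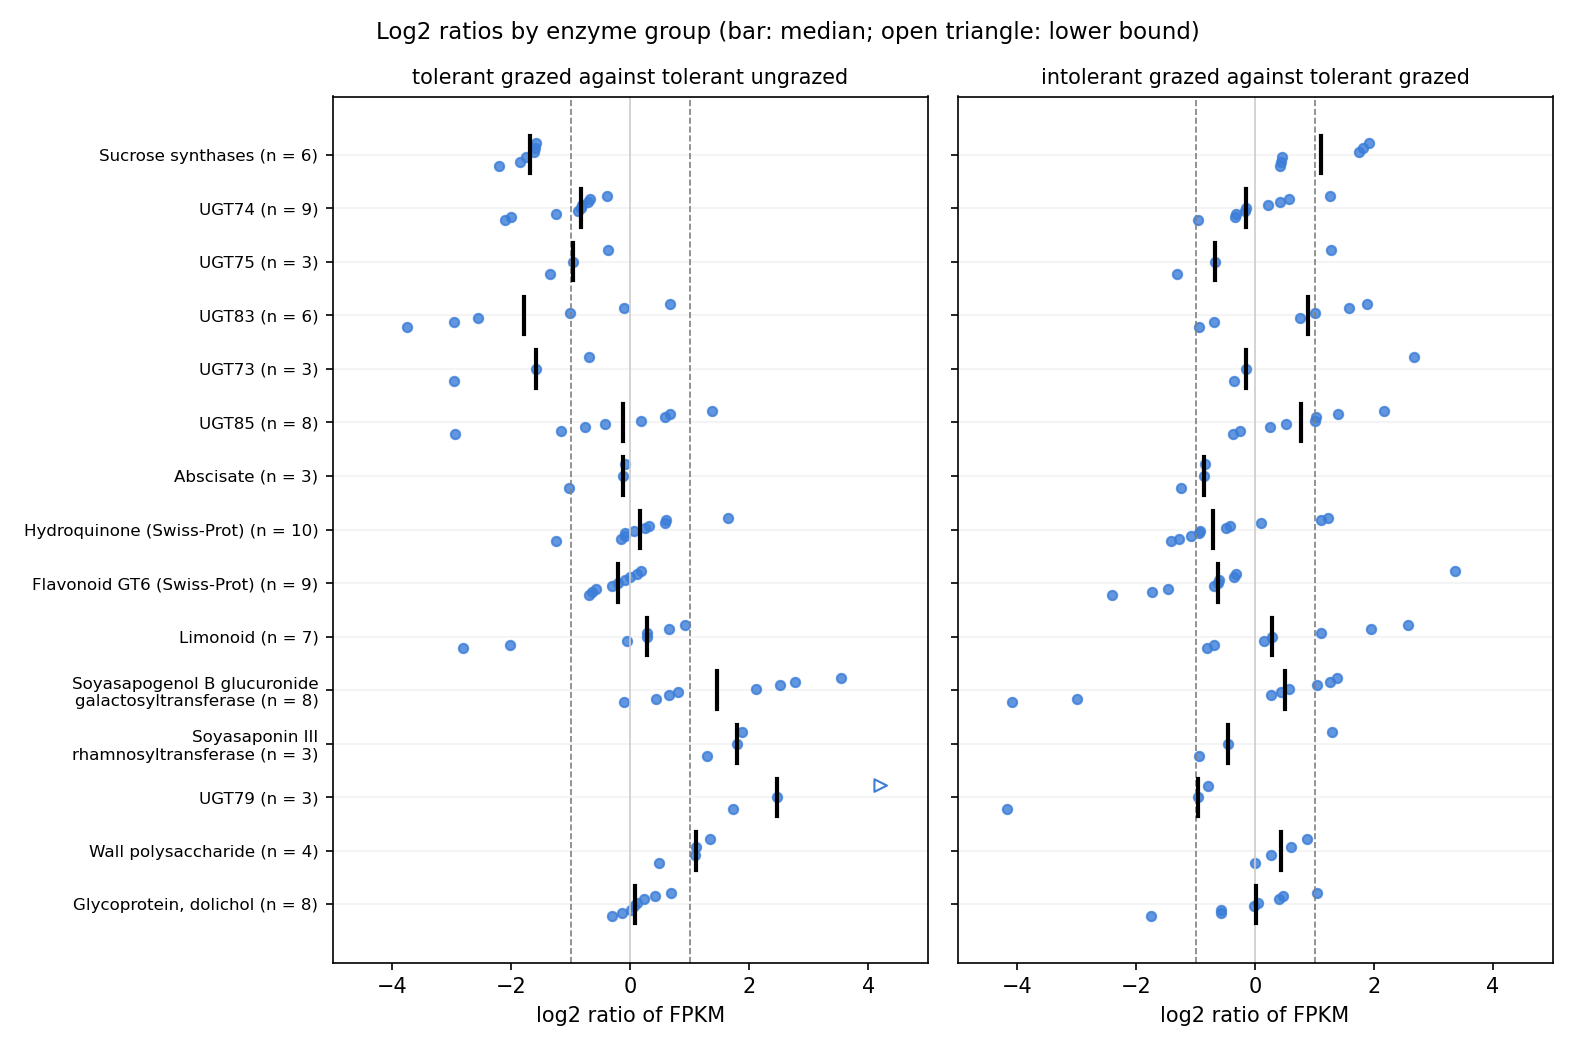
Log2 ratio of FPKM of each transcript (points) and the median (bars) by enzyme group, for tolerant grazed against tolerant ungrazed (left) and intolerant grazed against tolerant grazed (right), dashed lines marking the threshold of 1 and open triangles a lower bound. On the left the sucrose synthases, UGT74 and UGT75 lie wholly below 0 and the soyasaponin III rhamnosyltransferase matches, UGT79 and wall polysaccharide transcripts wholly above it. The numbered families hold only transcripts whose Swiss-Prot title gives the number, and may not cover the whole family.

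Of the 11 transcripts matched to soybean enzymes that build the sugar chain of soyasaponins, 7 were higher and none lower under grazing. Over all transcripts 16.9% were higher, and 9.56% of the legume-matched ones. These groups by Swiss-Prot title were chosen after their values were seen. Their 8 and 3 transcripts came from 5 and 2 clusters or single transcripts, so they are not all separate genes with certainty. In soybean, soyasapogenol B glucuronide galactosyltransferase adds galactose to the glucuronide of the triterpene soyasapogenol B, and soyasaponin III rhamnosyltransferase adds rhamnose after it. The 8 transcripts with the galactosyltransferase as their Swiss-Prot match were named anthocyanin 3'-O-beta-glucosyltransferase in Nr, so the substrate is not settled by annotation. They summed to 17.3, 45.2 and 62.0 FPKM. Under grazing, 4 were higher and none was lower, 7 of 8 had positive ratios (8 in TPM), and the median was 1.46. The most abundant, Unigene24911, was at 2.10, 12.0 and 28.8 FPKM, 2.51 (1.92 to 3.16) higher in the tolerant grazed than in the ungrazed library and 1.27 (0.99 to 1.55) higher again in the intolerant one. Unigene9224 had the same order at lower levels, 0.504, 2.18 and 5.64 FPKM.

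A pair of contigs in this group departed from it between the grazed libraries. CL2636.Contig2 was at 0.790, 5.41 and 0.682 FPKM, a ratio of 2.77 (2.07 to 3.55) under grazing and −2.99 (−3.84 to −2.23) in the intolerant plants. CL13465.Contig3 was at 0.508, 5.89 and 0.347 FPKM on 6, 69 and 4 fragments, with ratios of 3.53 (2.34 to 5.03) and −4.09 (−6.00 to −2.66). Both were high in the tolerant grazed library only, while CL2636.Contig3 and CL2636.Contig4 of the same cluster stayed between 1.71 and 4.13 FPKM in every library.

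The 3 transcripts matched to the rhamnosyltransferase, all with 1 best protein, were higher under grazing in each case. CL3334.Contig5 was at 7.37, 25.7 and 18.7 FPKM, CL3334.Contig4 at 2.17, 7.93 and 19.5 FPKM, and CL12912.Contig1 at 2.61, 6.39 and 3.31 FPKM. Their ratios under grazing were 1.80 (1.60 to 2.00), 1.87 (1.52 to 2.24) and 1.29 (0.93 to 1.67), while against the tolerant grazed library the intolerant one was −0.46, 1.30 and −0.95. Contigs of CL3334 whose titles name an anthocyanidin were set aside, among them Contig6 at 1.74, 10.4 and 9.68 FPKM. The sum of the 3 transcripts was 12.1, 40.0 and 41.5 FPKM, so the grazed libraries were level in this sum and differed in which of the 3 carried it. Unigene12325 was the most abundant transcript to follow this order, at 9.66, 47.6 and 67.1 FPKM on 343, 1679 and 2328 fragments. Its merged Nr title names a UDP-glucuronosyltransferase and a triterpene UDP-glucosyl transferase of Medicago truncatula, whereas its Swiss-Prot match is a flavonoid enzyme. Its ratio was 2.30 (2.13 to 2.47) under grazing and 0.49 (0.40 to 0.59) from tolerant to intolerant.

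UGT79 and UGT91 enzymes of other plants add a further sugar to a sugar already attached, as on anthocyanins and flavonols. All 3 UGT79 matches were higher under grazing and shared 1 best protein. CL927.Contig3 was at 1.39, 4.59 and 2.66 FPKM and CL927.Contig1 at 0.867, 4.80 and 2.48 FPKM, with ratios of 1.72 (1.12 to 2.36) and 2.47 (1.77 to 3.24). Unigene32703 had 0, 55 and 3 fragments, hence 0, 3.76 and 0.209 FPKM, and was at least 18.5-fold higher in the tolerant grazed than in the ungrazed library when the latter is set to 3 fragments. In the intolerant grazed library it was −4.17 (−6.49 to −2.55) against the tolerant grazed one, and all 3 transcripts of the family had negative ratios there, with a sum of 2.26, 13.2 and 5.36 FPKM. The one transcript whose Swiss-Prot title gives the number UGT91, CL6167.Contig1, was at 0.201, 2.19 and 3.91 FPKM on 5, 54 and 95 fragments. It was 3.44 (2.13 to 5.12) higher under grazing. Both UGT88A1 matches, contigs of CL6851 and related to enzymes of flavonoids and phenylpropanoids, were also higher under grazing, at 2.06, 5.47 and 4.22 FPKM in Contig3 and 2.03, 5.28 and 1.89 FPKM in Contig2. Neither had its whole interval past the threshold. Contig1 of this cluster, the contig of 472 bases given above as just outside the length limit, had a ratio of 0.55, short of the threshold.

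UGT89 held a contrast within a cluster. CL6739.Contig2 was nearly level, at 19.5, 17.8 and 19.0 FPKM. CL6739.Contig1, with the same best protein, had 0, 35 and 79 fragments and thus 0, 2.78 and 6.39 FPKM, at least 11.8-fold higher in the tolerant grazed than in the ungrazed library with the latter set to 3 fragments.

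**Figure D3:**
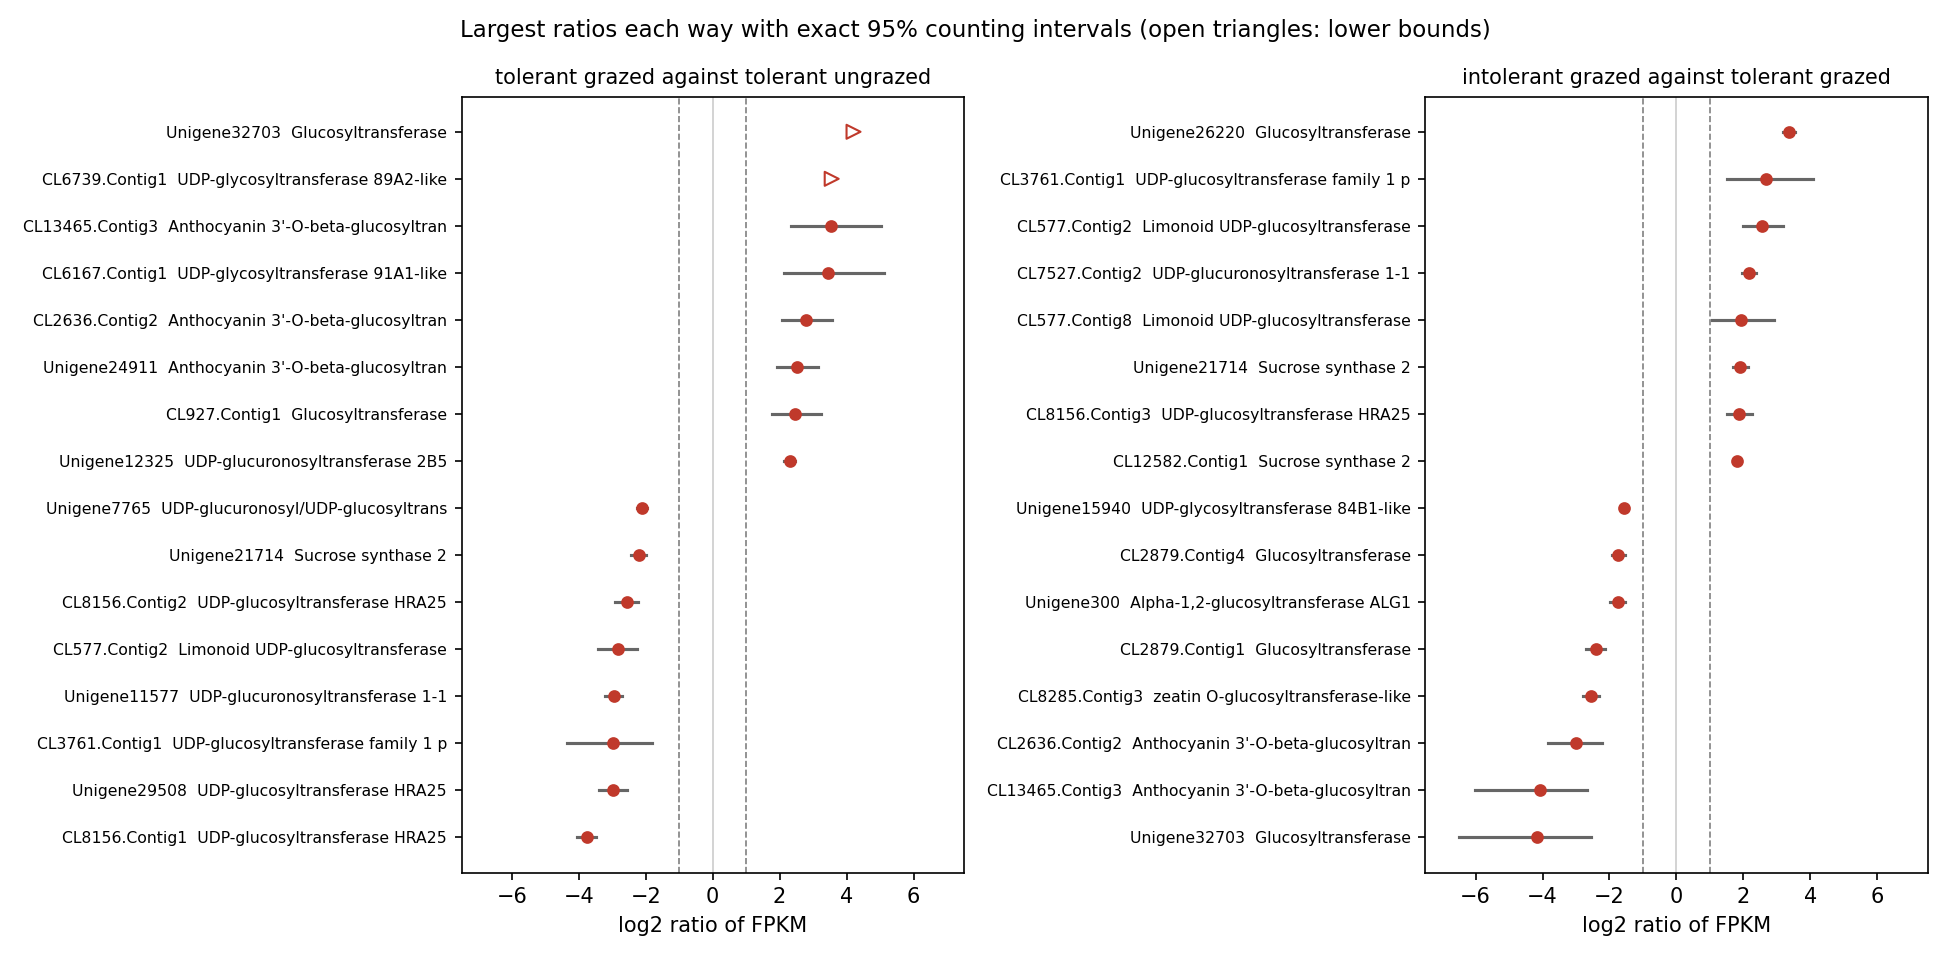
Log2 ratios (points) with exact 95% counting intervals (lines) of the 8 highest and 8 lowest transcripts of each comparison among those with a mean of at least 1 FPKM and 20 fragments in a library of that comparison, open triangles marking lower bounds for transcripts with 0 fragments in the ungrazed library. Under grazing (left) the lowest was CL8156.Contig1 at −3.76, and in the intolerant grazed library (right) the highest was Unigene26220 at 3.36.

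Phenolic acceptors include hydroquinone, whose glucoside is arbutin, and the alcohols from which lignin is made. The 6 transcripts named for them in Nr summed to 211, 213 and 110 FPKM, with 2 lower under grazing, 3 lower in the intolerant grazed plants (4 under each of the other scalings) and none higher in either comparison. Unigene15717, named hydroquinone glucosyltransferase, was at 81.7, 122 and 50.2 FPKM, 0.58 (0.51 to 0.65) under grazing and −1.28 (−1.36 to −1.21) in the intolerant library. CL13244.Contig1, a hydroquinone-named match to UGT72B1, was at 24.3, 10.1 and 5.21 FPKM, with ratios of −1.27 and −0.95. Of the 10 transcripts whose Swiss-Prot match was the hydroquinone enzyme, 3 were lower and 2 higher in the intolerant plants, and under the other scalings 5 were lower and from 0 to 2 higher. In FPKM these are 30% and 20%, near the 23.6% lower and 25.5% higher over all transcripts. Over the legume-matched ones 9.66% were lower and 15.5% higher. The lignifying stem markers stood within 1171 to 1310 FPKM in all libraries, and whether stem make-up had a part in the values above was not tested.

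Unigene15940, matched to UGT84B1, an enzyme that in Arabidopsis glucosylates the auxin indole-3-acetic acid, was at 112, 147 and 49.6 FPKM. Its ratio was 0.40 (0.34 to 0.45) under grazing and −1.57 (−1.64 to −1.50) in the intolerant plants, where it was among the 8 lowest. The 5 contigs of CL2879, named as Medicago glucosyltransferases and matched to a flavonoid 3-O-glucosyltransferase, had negative ratios in the intolerant grazed library under every scaling, 3 of them past the threshold. CL2879.Contig4 was at 33.8, 22.5 and 6.79 FPKM and CL2879.Contig1 at 27.5, 17.6 and 3.33 FPKM, ratios of −1.73 (−1.93 to −1.53) and −2.40 (−2.69 to −2.12), while CL2879.Contig2, the most abundant, was at 42.8 and 37.0 FPKM in the tolerant libraries and −0.69 (−0.81 to −0.56) in the intolerant one. The cluster summed to 136, 104 and 47.0 FPKM.

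In the opposite direction stood Unigene26220, at 4.67, 5.07 and 52.1 FPKM on 259, 279 and 2823 fragments, 3.36 (3.18 to 3.54) higher in the intolerant than in the tolerant grazed library and 0.12 (−0.13 to 0.37) between the tolerant ones. It was the highest ratio of the 116 in that comparison. The transcript is 2431 bases long, and its KEGG match is an SNW domain protein, a splicing factor, and not a glycosyltransferase, so the level cannot be given to a glycosyltransferase with certainty.

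Zeatin O-glucosyltransferases reversibly store the cytokinin zeatin. The contigs of CL8285 with this name went opposite ways in the intolerant grazed library. CL8285.Contig4 was at 19.8, 12.2 and 26.3 FPKM, 1.11 (0.95 to 1.27) higher than in the tolerant grazed library, and CL8285.Contig3 was at 19.7, 21.9 and 3.76 FPKM, −2.54 (−2.78 to −2.31). With the third, CL7527.Contig1, named for cis-zeatin and matched to UGT85A5, the 3 summed to a nearly constant 42.0, 38.0 and 40.6 FPKM.

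The 7 contigs of CL577, named limonoid UDP-glucosyltransferase after a citrus enzyme, all had 1 best protein. CL577.Contig6 was at 19.4, 4.78 and 2.74 FPKM. CL577.Contig2 was at 6.72, 0.954 and 5.65 FPKM, −2.82 (−3.42 to −2.26) under grazing and 2.57 (2.00 to 3.18) in the intolerant library. CL577.Contig4 was at 3.69, 4.50 and 9.65 FPKM and CL577.Contig8 at 0.487, 0.764 and 2.94 FPKM, both higher in the intolerant than in the tolerant grazed library. CL577.Contig10 at 5.32, 5.12 and 3.17 FPKM, CL577.Contig1 at 1.88, 2.27 and 2.52 FPKM and CL577.Contig3 at 0.626, 1.18 and 1.44 FPKM stayed short of the threshold. The contig with the highest level thus differed between the libraries, Contig6 in the ungrazed, Contig10 in the tolerant grazed and Contig4 in the intolerant grazed one, and the sums were 38.1, 19.6 and 28.1 FPKM.

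**Figure D4:**
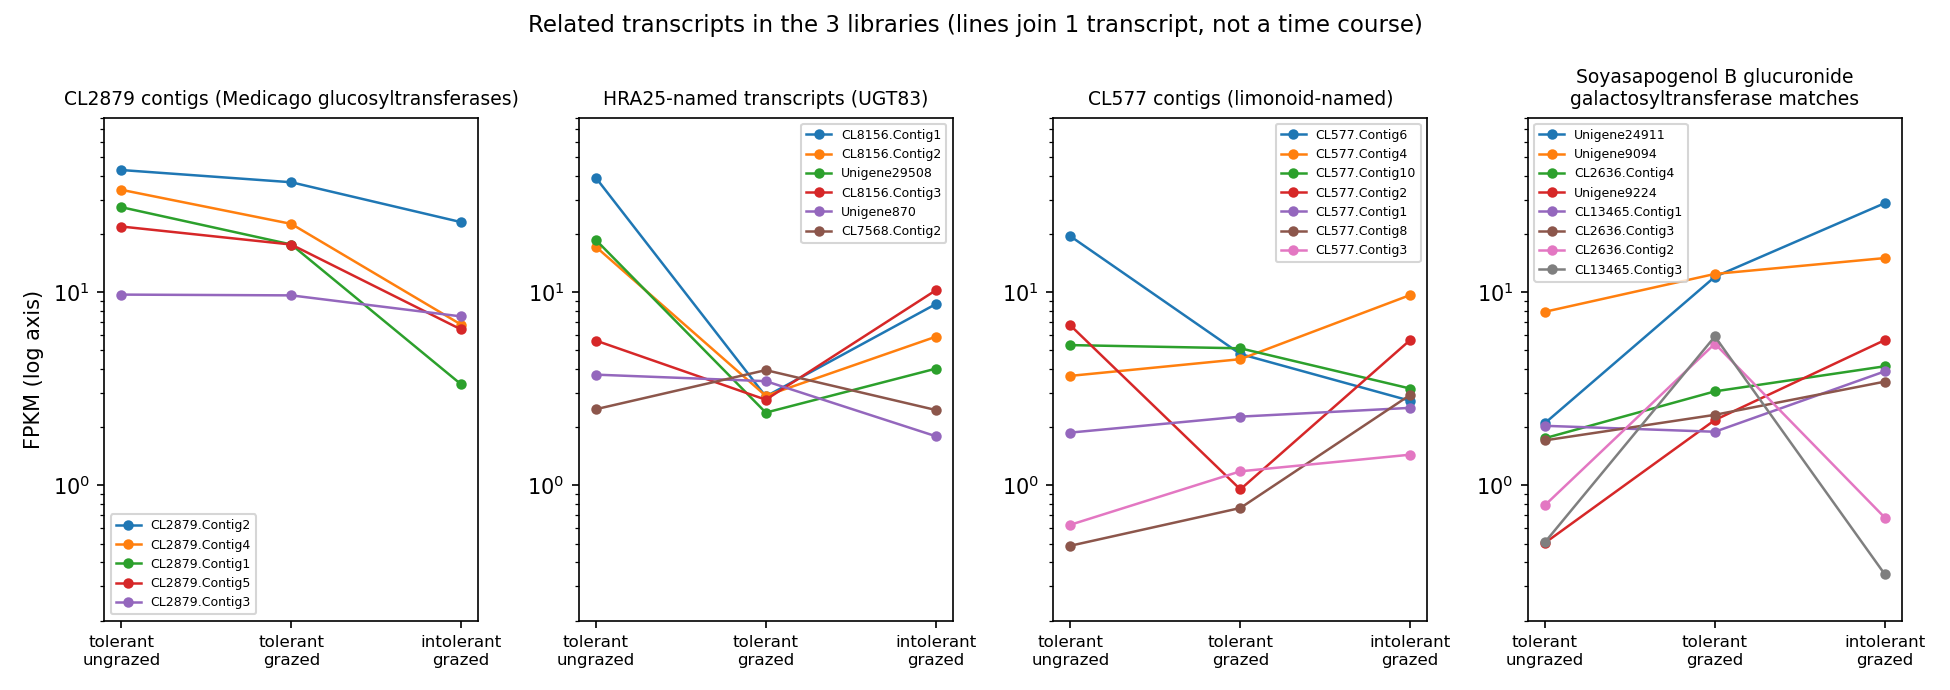
FPKM (log axis) of related transcripts in the 3 libraries, with lines joining the values of 1 transcript: CL2879 contigs, HRA25-named transcripts, CL577 contigs and matches to soyasapogenol B glucuronide galactosyltransferase. All CL2879 contigs were lowest in the intolerant grazed library, CL8156.Contig1 dropped from 39.0 to 2.88 FPKM between the tolerant libraries, and CL2636.Contig2 and CL13465.Contig3 peaked in the tolerant grazed one.

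Across all clusters with at least 2 of the transcripts, the spread of log2 ratios within a cluster had a median of 0.69 between the tolerant libraries and 0.83 between the grazed ones. It stayed below 1 in 13 and 12 of 22 clusters. By best protein the corresponding medians were 0.54 and 0.67 over 29 proteins, with 6 proteins higher in all of their transcripts and 3 lower in all of them under grazing.

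The enzymes that are neither UGTs of small molecules nor sucrose synthases follow. None of the 8 glycoprotein and dolichol transcripts was past the threshold under grazing, with ratios from −0.30 to 0.68, among them the UDP-glucose:glycoprotein glucosyltransferase Unigene17564, a folding sensor of the endoplasmic reticulum, at 13.7, 13.8 and 9.28 FPKM. Unigene300, matched to ALG10, which adds the last glucose to the dolichol-linked sugar chain, was at 13.7, 18.2 and 5.42 FPKM and −1.75 (−1.97 to −1.52) in the intolerant library. Unigene26406, named UDP-glucose:glycoprotein glucosyltransferase, was at 2.23, 1.81 and 3.73 FPKM and the one higher there, at 1.04 (0.42 to 1.69), a call not kept under the other scalings. The 4 wall transcripts, matched to enzymes of xylan, were all positive under grazing and 3 of them past the threshold (2 after median centring), though no interval lay wholly past it. CL8383.Contig1 was at 5.87, 12.6 and 12.7 FPKM, a ratio of 1.11 (0.84 to 1.38), and the group summed to 18.2, 35.3 and 44.8 FPKM. None of the 3 probable glucuronosyltransferases, 3 rumi-like O-glucosyltransferases and 2 beta-1,3-glucosyltransferases was past the threshold in either comparison. The probable glucuronosyltransferases, kept apart from the wall group, had ratios from 0.21 to 0.87 under grazing.

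**Figure D5:**
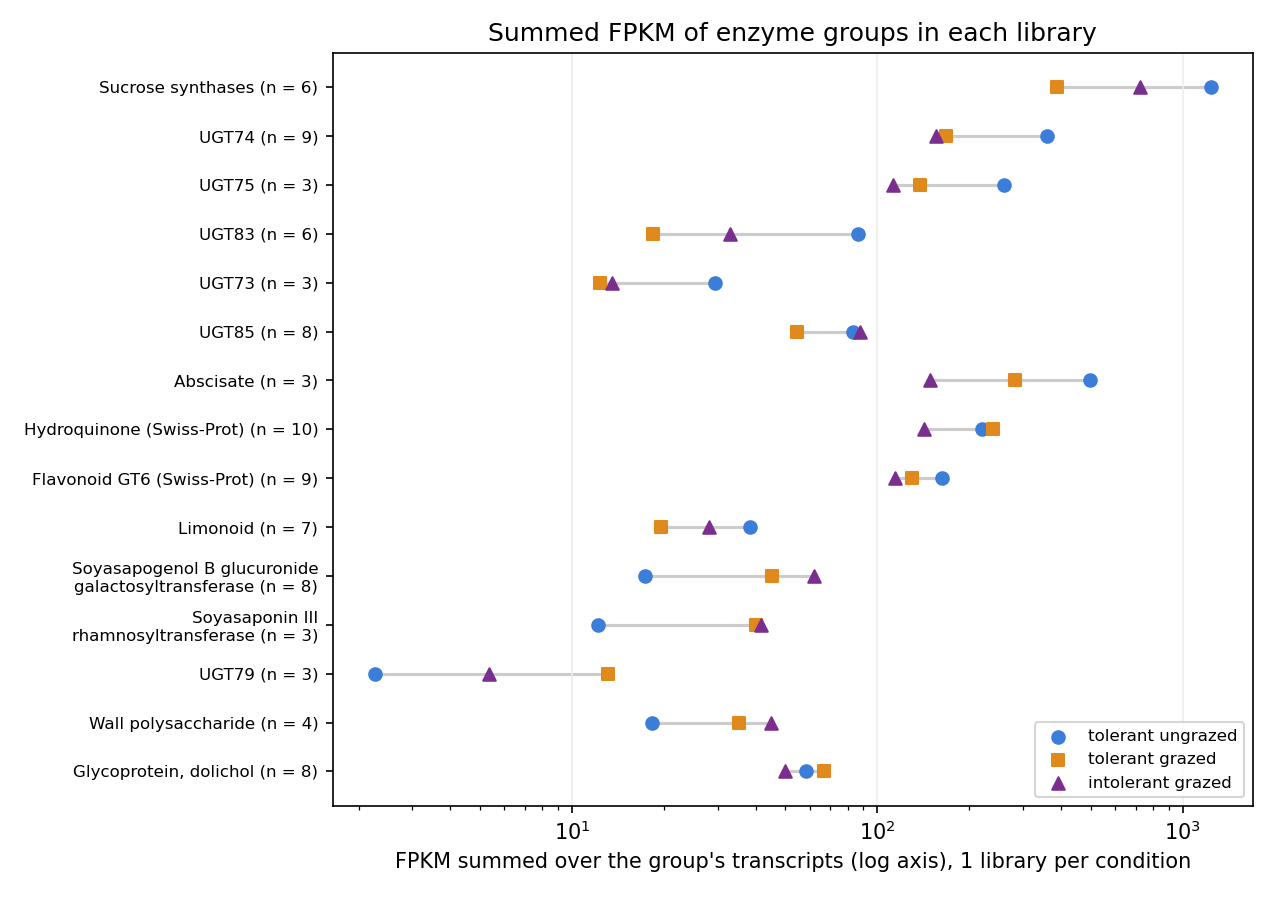
FPKM summed over the transcripts of each enzyme group (log axis) in the 3 libraries, with the number of transcripts in brackets. The tolerant ungrazed library held the highest sum for sucrose synthases, UGT74, UGT75, UGT83, UGT73 and the abscisate group, and the lowest for both saponin groups, UGT79 and the wall group. The UGT families hold only transcripts whose Swiss-Prot title gives the number, so their sums may not cover the whole family.

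Genes that act beside the UGTs were counted on lists drawn from the annotation. Their shares are to be read against the 9.56% higher and 5.15% lower of legume-matched transcripts under grazing and the 15.5% and 9.66% between the grazed libraries. Over all transcripts the shares were 16.9% higher and 24.4% lower under grazing, and 25.5% and 23.6% between the grazed libraries. Of 44 further transcripts of UDP-sugar supply, 4 were higher (9.09%) and 7 lower (15.9%) under grazing, and 11 higher (25.0%) and 6 lower (13.6%) in the intolerant grazed plants, with medians of 0.30 and 0.48. Of 97 beta-glucosidase transcripts, which include enzymes that release the sugar again and others that act on wall glucans, 26 were higher (26.8%) and 10 lower (10.3%) under grazing with a median of 0.50, and 12 were higher (12.4%) and 22 lower (22.7%) between the grazed libraries with a median of 0.03. The most abundant of them, a glucan endo-1,3-beta-glucosidase (CL5086.Contig5), was at 228, 178 and 73.6 FPKM. Of 63 glucosyltransferases whose titles name the substrates that were set aside, 14 were higher (22.2%) and 5 lower (7.94%) under grazing and 15 higher (23.8%) and 6 lower (9.52%) in the intolerant plants, led by a cytokinin-O-glucosyltransferase (CL4955.Contig1) at 18.6, 41.3 and 63.7 FPKM. Of 59 other glycosyltransferases, 8 were higher (13.6%) and 2 lower (3.39%) under grazing and 3 higher (5.08%) and 5 lower (8.47%) in the intolerant plants, and their most abundant transcript, a GT8 family enzyme (CL12311.Contig2), was at 54.7, 61.1 and 71.4 FPKM.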

How the data were processed

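Polyadenylated RNA of 3 bulks was sequenced by the authors on an Illumina platform, all clean reads were assembled with Trinity and clustered with the TGI tools, and reads were aligned back with SOAP; versions are not given in the sources used here. The deposited fragment counts are the unnormalized counts of uniquely aligned fragments per transcript, and the deposited FPKM values were made by the authors from those counts, the transcript length and the library total. Recomputed FPKM differed from the deposited FPKM by at most 5e-05. Annotations are the best database matches given in the deposited table, with no genome build.

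Ratios were computed over the whole table on the log2 scale, an FPKM of 0 being set to 0.01 as the study did, and the glycosyltransferase rows were then read from it (Python 3.11.15, numpy 2.4.6, pandas 2.3.3, scipy 1.17.1). A value of 3 fragments stood for 0 in lower bounds. The Poisson test of the methods compares 2 libraries and not conditions; it was used only as an alternative call rule, adjusted by the Benjamini-Hochberg method at 0.001, and was tested on simulated data. Named transcripts were the 15 most abundant, the 8 highest and 8 lowest ratios of each comparison with a mean of at least 1 FPKM and at least 20 fragments in a library, the most abundant of each role list and of each family with 3 or more transcripts, and all contigs of the largest cluster. Groups by Swiss-Prot title, the list of enzymes other than UGTs and the other named contigs were chosen after their values were seen. The members and lists were chosen with earlier results of these data known. No sequence is printed.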

Additional observations from a re-analysis of the deposited data

How the results depend on the processing

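Of 112 values computed under 12 planned and 3 added alternatives, 82 stayed within the limit set for their kind. The 3 added alternatives were chosen after seeing the data. The limit was 1.5 times the count for counts and the counting interval for summed FPKM. For medians it was a wider interval, taken from the spread of ratios among the transcripts, which are not replicates. Every median stayed within it, even where the sign changed, so this does not show that the medians were stable. For the tolerant libraries (21 higher, 23 lower), 9 were higher and 10 lower at an absolute log2 ratio of 2, 11 and 12 with FPKM summed per best protein, and 9 higher at a length of at least 1000 bases. Between the grazed libraries (27 higher, 17 lower), 17 were higher with 1 added to every FPKM, 4 higher and 5 lower at a log2 ratio of 2, 17 and 28 after median ratio rescaling, 13 and 9 per cluster, 13 higher per best protein and 16 higher at 1000 bases; TPM gave 22 and 24, and totals without the cluster CL4238, which took 3.27% to 11.5% of fragments, 19 and 24. The summed and longer sets hold fewer units; otherwise the cause was not tested.

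The log2 ratio of summed FPKM under grazing, −0.75, was −0.72 with 1 added, −0.84 after median ratio rescaling, −0.64 in TPM, −0.59 per cluster, −0.80 at 1000 bases, −0.79 without wall, glycoprotein and dolichol enzymes, −0.40 without sucrose synthases, −0.45 for the 90 UGTs and −0.69 without CL4238. Between the grazed libraries, 0.02 turned to −0.21 after rescaling, −0.072 in TPM, −0.10 per cluster, −0.31 without sucrose synthases, −0.33 for the UGTs and −0.11 without CL4238, and was 0.076 at 1000 bases, so its sign is not settled. The median ratio, −0.02 and 0.03, also changed sign, ranging from −0.11 to 0.09 and from −0.22 to 0.06. Counting error limits the transcripts under 20 fragments in a library. No paired analysis was possible because each condition has 1 library.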
